A study of Homo sapiens with 8 samples.

Results

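Transcripts of 10 genes were followed in MP38 uveal melanoma (UM) cells exposed to histone deacetylase (HDAC) or bromodomain and extra-terminal (BET) inhibitors: the FOS family (FOS, FOSB, FOSL1 and FOSL2), the JUN family (JUN, JUNB and JUND), ATF3, EGR1 and IER2. The genes were chosen by name, as the FOS and JUN subunits of AP-1 and a set of immediate early regulators, from the 35238 gene symbols counted. Earlier results of these data were known when the choice was made. All 10 were present and passed the filter on low counts, which left 15085 genes. MP38 is a BAP1-mutant line established from human UM. Cells were exposed for 24 h to romidepsin at 40 nM, to quisinostat at 40 nM or to mivebresib at 1200 nM, each in 0.1% DMSO, and control wells received the same DMSO without drug. Romidepsin and quisinostat inhibit HDAC enzymes, which remove acetyl groups from histones, and mivebresib keeps BET proteins from binding acetylated histones. Each of the 4 groups had 2 libraries of strand-specific messenger RNA from separate wells of this single line, so the p-values measure the spread between wells. The comparison asks how the drugs shift these regulators after a day of exposure, and whether drugs of the same and of different classes do so alike.

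AP-1 is a dimer of basic leucine zipper (bZIP) proteins. FOS proteins pair mainly with JUN proteins, whereas JUN proteins can also pair with themselves or with ATF relatives. The dimers bind short DNA elements in promoters and enhancers. Immediate early genes are transcribed within minutes of a growth factor or stress signal without new protein synthesis, largely through MAP kinases that activate factors already bound at their promoters. In melanocytic tumours MAP kinase signalling is driven by oncogenes, in UM mostly by activated G proteins, and AP-1 factors are among its nuclear targets.

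The libraries held 28483235 to 29359024 counts, so depth was close to equal. The control libraries differed more from each other than those of any drug group, with a chi-square statistic per degree of freedom of 58.1 against 9.52 to 9.79. The model pooled the spread of each gene over all groups. The p-values against control can therefore understate the spread between control wells. The cell label was matched by the melanocytic markers TYRP1 (2870 to 3870 CPM, the count scaled to a common library size), PMEL, MLANA, MITF and SOX10, while TYR was low and DCT reached at most 0.176 CPM. The summed level of 4 leukocyte markers was 63.5 to 78.1 CPM in control, 77.5 to 79.5 in romidepsin, 72.2 to 74.4 in quisinostat and 59.7 to 66.9 in mivebresib libraries, nearly all of it CD68, a lysosomal protein best known from macrophages (59.6 to 79.4 CPM), while PTPRC and MS4A1 reached at most 11 and 6 counts. The summed levels of 4 epithelial and 3 endothelial markers were at most 0.588 and 0.834 CPM, both highest in quisinostat libraries, and KRT5, CDH5 and CD3E had 0 counts in every library. The summed level of 6 fibroblast markers was 13.6 to 20.8 CPM in control, 20.2 to 24.7 in romidepsin, 37.8 to 38.7 in quisinostat and 7.80 to 10.4 in mivebresib libraries, nearly all of it PDGFRA and COL1A1, and the part of these markers in the results was not tested. In bulk RNA, fewer expressing cells and less RNA per cell cannot be told apart.

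Immediate early genes are classically induced through short elements in their promoters. Stretches of the EGR1, FOS, ATF3, JUN and JUND promoters are shown, picked by hand and not by the size of the changes. RefSeq windows on GRCh38.p14, from 250 bases before to 50 after the annotated start, were found for 9 of the 10 members, with a pair of windows for ATF3, and FOSL1 was not matched. The ATF3 stretch comes from the upstream window, chr1:212565157-212565456. The second ATF3 window lies at chr1:212614768-212615067, and which start these cells use was not tested. Capitals mark the motifs found, and positions count back from -1, the base before the start. Bases that lie inside the gene on GENCODE 29 are shown only as a 30-base site.
EGR1, chr5:138465339-138465467, plus strand: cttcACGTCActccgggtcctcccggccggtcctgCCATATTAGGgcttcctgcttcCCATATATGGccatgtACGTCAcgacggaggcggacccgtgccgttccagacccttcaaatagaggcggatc
FOS upstream stretch, chr14:75278678-75278773, plus strand: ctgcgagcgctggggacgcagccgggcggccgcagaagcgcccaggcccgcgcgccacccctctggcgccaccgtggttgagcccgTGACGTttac
FOS site, chr14:75278783-75278812, plus strand: taaaacgcttgtTATAAAagcagtggctgc
ATF3, chr1:212565247-212565333, plus strand: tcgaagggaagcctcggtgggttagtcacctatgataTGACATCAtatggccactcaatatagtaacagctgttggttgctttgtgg
JUN site, chr1:58784096-58784125, minus strand: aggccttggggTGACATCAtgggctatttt
JUND, chr19:18281698-18281827, minus strand: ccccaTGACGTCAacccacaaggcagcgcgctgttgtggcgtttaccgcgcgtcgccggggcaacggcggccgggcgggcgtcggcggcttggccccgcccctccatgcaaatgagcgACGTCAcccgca

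EGR1 held 2 CArG boxes, the element bound by serum response factor, at positions -105 to -96 and -83 to -74. Of 35116 promoters of this length, 1.29% held a CArG box. TGACATCA, a cyclic AMP response element variant to which JUN and ATF dimers can bind, was found in JUN at -67 to -60 and in the upstream window of ATF3 at -123 to -116, against 2.61% of all promoters. The palindromic form TGACGTCA was found in JUND at -200 to -193 and in 1.85% of promoters. Its core TGACGT, searched after the members' sequences had been seen and contained in TGACGTCA, was in FOS, FOSB, FOSL2, EGR1 and JUND and in 7.98% of promoters. It reads ACGTCA where it lies on the other strand. The AP-1 element TGACTCA was found in FOSL2 alone, just after the start, and in 4.95% of promoters. TATAAA was found in FOS at -33 to -28, in FOSB at -30 to -25 and in JUNB at -31 to -26. In the second ATF3 window it lay farther from the start, at -230 to -225. Of all promoters, 11.5% held it. GCGGGGGCG, the EGR element, was in no member window and in 5.07% of promoters. Both strands were searched, and a match is a description of the letters in the window. Bases farther upstream were not searched, so a motif missing from a window can still lie outside it. Differences between members in these motifs hold for the windows alone.

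In control cells, JUND, JUN and FOSL2 had the highest levels per length of transcript, at 41.3 ± 13.3, 39.9 ± 0.894 and 39.2 ± 2.90 CPM per kilobase of exon (SD, n = 2), and their ranges overlapped. FOSL1 followed at 32.6 ± 3.14 and IER2 at 21.6 ± 0.608. FOS (18.0 ± 0.815), JUNB (17.2 ± 1.09) and EGR1 (16.9 ± 0.510) formed a group with overlapping ranges. ATF3 was low at 3.29 ± 0.584 and FOSB close to absent at 0.195 ± 0.0317. The order depends on the exon length used: per kilobase of the principal transcript, FOS came to 27.1 and ATF3 to 6.53 CPM per kilobase in control. In mivebresib libraries JUND led with 101 ± 6.49 CPM per kilobase, JUN followed with 72.0 ± 1.26, and FOS (6.34 ± 0.550) lay below ATF3 (10.9 ± 0.194). The plot of levels by library shows each gene on its own scale.

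**Figure D1:**
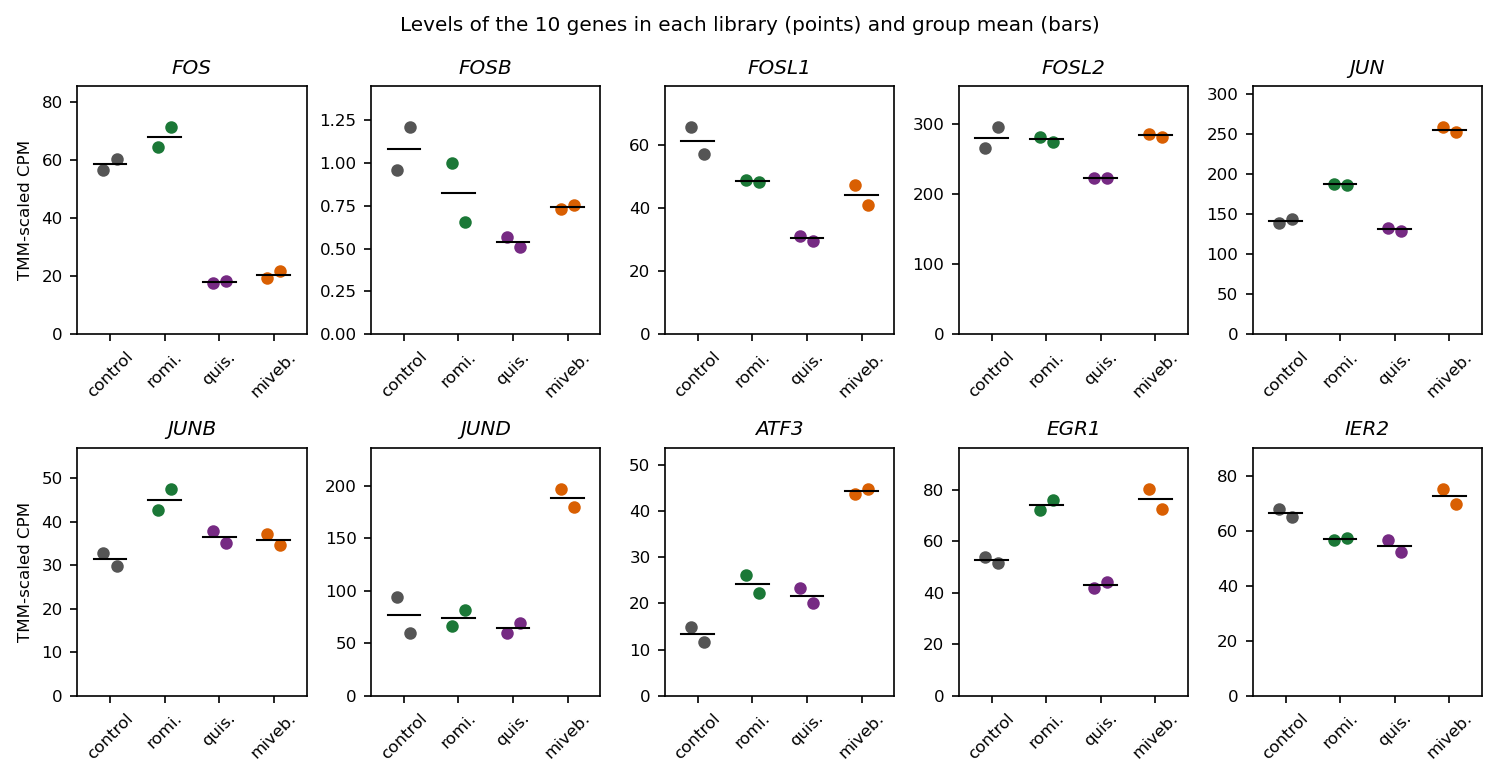
TMM-scaled CPM of each of the 10 genes (y axis, linear from 0, own scale per gene) in the 2 libraries of each group (x axis: control, romidepsin, quisinostat, mivebresib). Points are libraries and bars are group means. FOS sat near 58 CPM in control and near 20 CPM in quisinostat and mivebresib libraries, while JUN, JUND and ATF3 were highest in mivebresib libraries.

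Each drug moved a different set of the 10 genes. With romidepsin, JUN, JUNB, ATF3 and EGR1 rose and FOSL1 fell at a Benjamini-Hochberg adjusted p below 0.05 in edgeR's quasi-likelihood test, beside 15.2% of all tested genes called higher and 15.8% called lower. With quisinostat, ATF3 rose and FOS, FOSB, FOSL1, FOSL2, EGR1 and IER2 fell, beside 28.0% called higher and 25.1% called lower. With mivebresib, JUN, JUND, ATF3 and EGR1 rose and FOS and FOSL1 fell, beside 22.2% called higher and 24.1% called lower. The libraries did not overlap with control for 7 members with romidepsin, 9 with quisinostat and 9 with mivebresib, where 63.6%, 74.2% and 69.7% of all genes did not. The median log2 change of the 10 genes was 0.10, -0.29 and 0.16 with romidepsin, quisinostat and mivebresib, beside -0.012, -0.0036 and 0.0067 over all tested genes. The 3 comparisons share the control libraries.

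The direction of small changes with quisinostat depended on the scaling. Library size alone, without the trimmed mean of M values (TMM) factors, moved the median change of all genes to 0.20 on the log2 scale, and upper-quartile factors moved it to 0.13. The calls over all genes went from 4231 higher and 3793 lower to 5625 and 2144 under library size alone and to 5048 and 2673 under upper-quartile factors, and with romidepsin from 2293 and 2377 to 2787 and 1700 and to 2883 and 1665. Under either scaling only FOS and FOSL1 of the 6 members stayed below control at the threshold. The calls of FOSB, FOSL2, EGR1 and IER2 thus depended on the scaling, and DESeq2 with its own size factors kept those of FOSL2, EGR1 and IER2. With romidepsin, the fall of FOSL1 was also lost under both scalings and FOS was called higher instead. With mivebresib the same 6 members were called under every setting tried. The plot of changes against control gives all 30 estimates with their intervals.

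**Figure D2:**
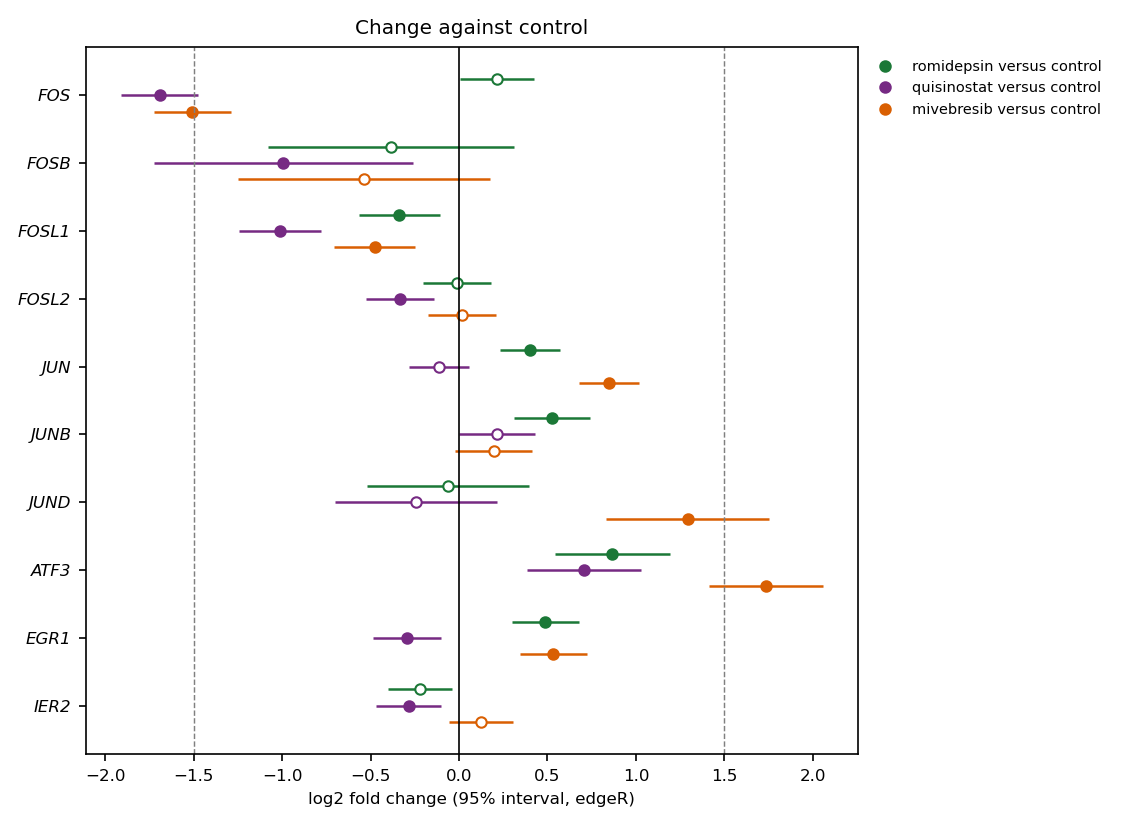
log2 fold change against control (x axis) for each of the 10 genes (y axis) with romidepsin, quisinostat and mivebresib. Points are edgeR estimates, filled at an adjusted p below 0.05, bars are 95% intervals, and dashed lines mark a log2 change of 1.5 either way. FOS with quisinostat (-1.69) and mivebresib (-1.51) and ATF3 with mivebresib (1.73) lie past the lines.

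FOS, the founding member of the family and a short-lived transactivating partner of JUN, gave the largest fall among the 10 genes. It lies on chr14:75278774-75282230 of GRCh38, plus strand, with 4 exons in its principal transcript. Control libraries held 56.5 and 60.3 CPM, romidepsin libraries 64.3 and 71.1, quisinostat libraries 17.8 and 18.3, and mivebresib libraries 19.3 and 21.8. The quisinostat and mivebresib libraries lay well below all others, and both romidepsin libraries lay above both controls. FOS fell by 1.69 on the log2 scale with quisinostat (SE 0.0956, adjusted p = 4.47e-06 in edgeR's quasi-likelihood test) and by 1.51 with mivebresib (SE 0.0953, adjusted p = 9.88e-06). Both falls held under all 17 alternatives, from -1.74 to -1.45 with quisinostat and from -1.60 to -1.43 with mivebresib, so the estimates straddle the study's limit of 1.5. A fall past both thresholds was found for 1.03% of all genes with quisinostat and 4.36% with mivebresib. With romidepsin the log2 difference was 0.21 (95% interval 0.0068 to 0.42, adjusted p = 0.106), and it passed the threshold under library size alone (adjusted p = 0.0482) and upper-quartile factors (adjusted p = 0.0380).

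FOSL1 (also named FRA1), a FOS relative that lacks the strong transactivation domain of FOS and is known for its link to invasive growth, was lower with each drug. It lies on chr11:65892049-65900573, minus strand. Its levels were 65.7 and 57.3 CPM in control, 48.9 and 48.5 with romidepsin, 31.4 and 29.6 with quisinostat, and 47.4 and 41.0 with mivebresib. Every drug library lay below both controls, and the quisinostat libraries lay lowest. The fall with quisinostat was 1.01 on the log2 scale (SE 0.102, adjusted p = 7.57e-05 in edgeR) and that with mivebresib 0.48 (log2 change -0.48, SE 0.100, adjusted p = 0.00484), and both held under all 17 alternatives. The romidepsin value of -0.34 (SE 0.0999, adjusted p = 0.0340) held under 7 of 17 alternatives and was lost, among others, without control library 1 (adjusted p = 0.137), either romidepsin library or either quisinostat library.

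FOSL2 (FRA2), the FOS-family transcript with the highest level here, was called changed with quisinostat alone. It lies on chr2:28392448-28417312, plus strand. Control libraries held 266 and 296 CPM, romidepsin libraries 282 and 275, quisinostat libraries 223 and 223, and mivebresib libraries 286 and 283. Romidepsin and mivebresib libraries fell inside the control range, and the quisinostat libraries lay below it. The log2 change was -0.33 with quisinostat (SE 0.0833, adjusted p = 0.00940), held under 11 of 17 alternatives, and was lost without either quisinostat library, at adjusted p values of 0.0689 and 0.0590. With romidepsin and mivebresib it was -0.012 and 0.016, with 95% intervals of -0.20 to 0.18 and -0.17 to 0.21. FOSB, a FOS relative prominent in stimulated neurons, had 16 to 33 counts per library. Its 27 and 33 control counts stood beside 29 and 19 with romidepsin, 18 and 16 with quisinostat and 20 and 21 with mivebresib. Only the quisinostat difference passed (0.502 times control, adjusted p = 0.0285 in edgeR), and it was lost with DESeq2 (adjusted p = 0.115) and without control library 2 (adjusted p = 0.125) or either quisinostat library. FOSB (chr19:45467995-45475179, plus strand) lies wholly within ERCC1 on the opposite strand, which had 814 to 1617 counts and changed by -0.17, -0.062 and -0.65 on the log2 scale with romidepsin, quisinostat and mivebresib. Whether the counting used strand is not given, so counts of the overlapping pair cannot be told apart.

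JUN, the AP-1 subunit that forms the core of most dimers and is activated by JNK kinases, was higher with romidepsin and most with mivebresib. It lies on chr1:58780788-58784327, minus strand, as a single exon. The levels were 139 and 144 CPM in control libraries, 188 and 186 in romidepsin, 133 and 129 in quisinostat, and 258 and 252 in mivebresib libraries. The replicates lay close together, and the groups did not overlap. The rise was 0.40 with romidepsin (SE 0.0739, adjusted p = 0.00455 in edgeR) and 0.85 with mivebresib (SE 0.0742, adjusted p = 4.78e-05) on the log2 scale, and both held under all 17 alternatives. With quisinostat the log2 difference of -0.11 (95% interval -0.28 to 0.055, adjusted p = 0.226) did not pass, and it turned to 0.087 under library size alone and 0.016 under upper-quartile factors.

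JUND, a JUN-family member transcribed in resting cells as well and often linked to growth restraint, rose with mivebresib. It lies on chr19:18279760-18281622, minus strand, as a single exon. Control libraries held 94.6 and 59.4 CPM, romidepsin libraries 66.3 and 81.3, quisinostat libraries 60.1 and 69.8, and mivebresib libraries 197 and 180. Both mivebresib libraries lay above all others, while the romidepsin and quisinostat libraries lay between the widely spaced controls. The rise with mivebresib was 1.29 on the log2 scale (SE 0.201, adjusted p = 0.00101 in edgeR), 0.99 without control library 2 and 1.67 without control library 1. With romidepsin the difference was -0.062 (95% interval -0.52 to 0.40, adjusted p = 0.837) and with quisinostat -0.24 (95% interval -0.70 to 0.21, adjusted p = 0.331). The sign of both turned with the control library left out: without control library 1 they were 0.33 and 0.13, and without control library 2 they were -0.36 (adjusted p = 0.0419) and -0.55 (adjusted p = 0.00374).

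JUNB, a weaker activator than JUN that can oppose it, was called higher with romidepsin. Its single exon lies on chr19:12791496-12793315, plus strand. The levels were 32.8 and 30.0 CPM in control, 42.7 and 47.6 with romidepsin, 37.8 and 35.1 with quisinostat, and 37.2 and 34.6 with mivebresib. All drug libraries lay above both controls, the romidepsin libraries highest. The log2 change was 0.52 with romidepsin (SE 0.0943, adjusted p = 0.00414) and held under all 17 alternatives. It was 0.22 with quisinostat (adjusted p = 0.0845) and 0.20 with mivebresib (adjusted p = 0.125). The quisinostat value passed under library size alone (0.42, adjusted p = 0.00635), upper-quartile factors (0.35, adjusted p = 0.0126) and without control library 1 (0.28, adjusted p = 0.0396). JUNB lies wholly within HOOK2 on the opposite strand, which had 245 to 568 counts and was higher with each drug, by 0.76, 0.97 and 0.67 on the log2 scale for romidepsin, quisinostat and mivebresib. The part of shared counts in the JUNB values was not tested.

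ATF3, a stress-induced bZIP factor of the ATF and CREB group that can pair with JUN proteins, was the only member called higher with each drug. It lies on chr1:212565334-212620777, plus strand, with 4 exons in its principal transcript. Control libraries held 422 and 318 counts of ATF3, romidepsin libraries 763 and 647, quisinostat libraries 737 and 629, and mivebresib libraries 1194 and 1245. Every drug library lay above both controls, with the mivebresib libraries highest. The log2 rise was 0.87 with romidepsin (SE 0.141, adjusted p = 0.00270), 0.71 with quisinostat (SE 0.141, adjusted p = 0.00316) and 1.73 with mivebresib (SE 0.141, adjusted p = 3.28e-05) in edgeR's quasi-likelihood test. The 3 rises held under all 17 alternatives, and that with mivebresib ran from 1.56 to 1.93, past the limit of 1.5 in each. A rise past both thresholds with mivebresib was found for 3.96% of all genes.

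EGR1, a zinc finger factor induced through serum response factor, moved in opposite directions with the HDAC inhibitors. It lies on chr5:138465490-138469315, plus strand, with 2 exons. The levels were 54.0 and 51.8 CPM in control, 72.3 and 75.9 with romidepsin, 42.0 and 44.3 with quisinostat, and 80.4 and 72.6 with mivebresib. Romidepsin and mivebresib libraries lay above both controls and quisinostat libraries below. EGR1 rose by 0.49 with romidepsin (SE 0.0830, adjusted p = 0.00332) and by 0.53 with mivebresib (SE 0.0831, adjusted p = 0.00103) on the log2 scale, under all 17 alternatives. The quisinostat value of -0.29 (SE 0.0836, adjusted p = 0.0171) was below 0 throughout but passed under 10 of 17, and was lost without either quisinostat library (adjusted p = 0.0509 and 0.130).

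IER2, a growth factor-inducible nuclear protein, differed from control by at most 0.29 on the log2 scale in either direction. It lies on chr19:13150415-13154908, plus strand, 357100 bp from JUNB. The levels were 67.7 and 65.1 CPM in control, 56.5 and 57.3 with romidepsin, 56.5 and 52.4 with quisinostat, and 75.2 and 69.7 with mivebresib. Both HDAC inhibitors gave libraries below the controls and mivebresib gave libraries above them. The log2 differences were -0.22 with romidepsin (adjusted p = 0.0643), -0.29 with quisinostat (adjusted p = 0.0154) and 0.13 with mivebresib (adjusted p = 0.228). The quisinostat fall held under 11 of 17 alternatives and was lost without quisinostat library 2 (adjusted p = 0.114), and the romidepsin value passed without control library 2 (adjusted p = 0.0402).

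The HDAC inhibitors were given at the same nominal dose for the same time. In viability assays of MP38 the paper lists a lower IC50 for romidepsin than for quisinostat, so equal doses need not be equally strong. The part of this in the differences was not tested. Compared directly, the 2 drugs differed at the threshold at 6 of the 10 genes. FOS, FOSL1, FOSL2, JUN, JUNB and EGR1 were lower with quisinostat than with romidepsin and no member was higher, also in edgeR at an unadjusted p below 0.05 (0 of 10), in DESeq2 (0) or in limma-voom (0), beside 14.6% of all genes called lower and 21.0% called higher. The difference in FOS was -1.91 on the log2 scale (SE 0.0958, adjusted p = 2.61e-05), and a fall past both thresholds was found for 0.179% of all genes. EGR1 (-0.78, adjusted p = 3.45e-04), FOSL1 (-0.68, adjusted p = 0.00158) and JUN (-0.52, adjusted p = 0.00128) followed. These differences of FOS, EGR1, FOSL1 and JUN held under all 17 alternatives, while those of FOSL2 (-0.32, adjusted p = 0.0175) and JUNB (-0.31, adjusted p = 0.0327) were lost under library size alone and without any 1 of the romidepsin and quisinostat libraries (adjusted p of 0.0568 to 0.204). ATF3 did not pass (-0.16, 95% interval -0.47 to 0.15), nor did JUND (-0.18, 95% interval -0.64 to 0.27), IER2 (-0.063, 95% interval -0.25 to 0.12) or FOSB (-0.61, 95% interval -1.36 to 0.15), and these intervals leave room for differences either way.

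**Figure D3:**
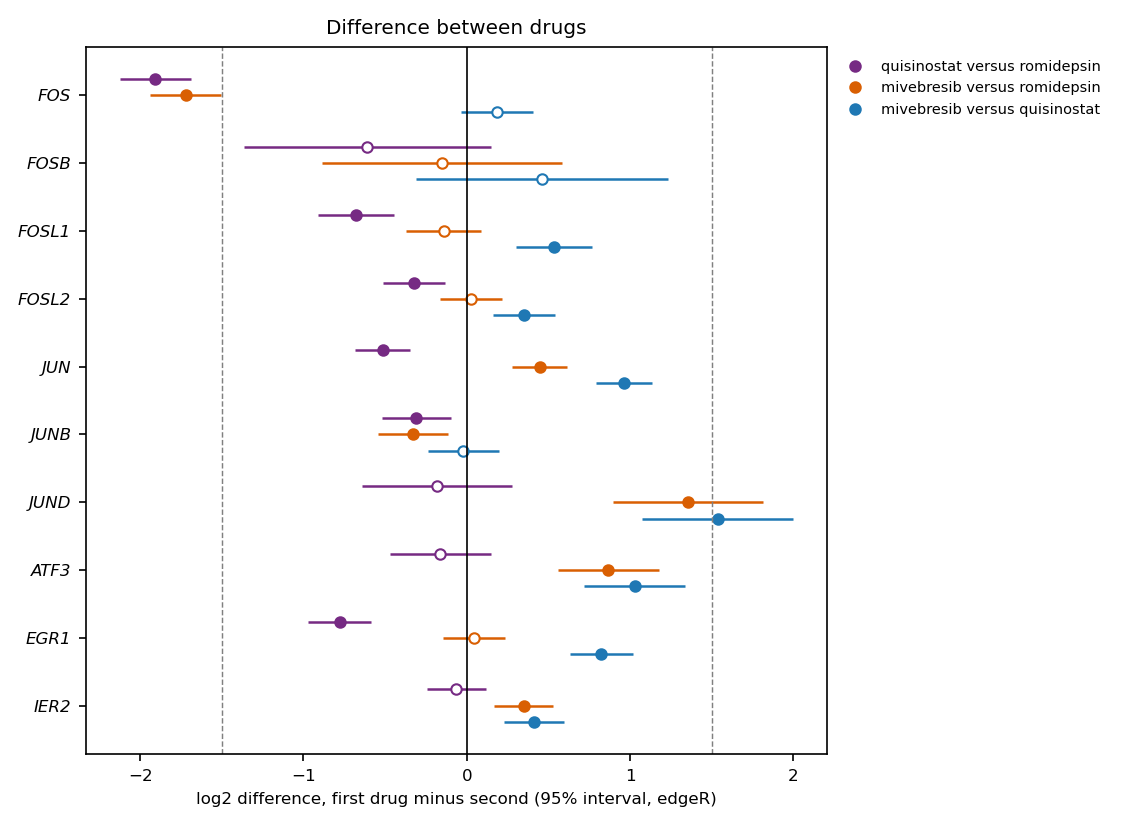
log2 difference between drugs (x axis, first drug minus second) for each of the 10 genes (y axis). Points are edgeR estimates, filled at an adjusted p below 0.05, bars are 95% intervals, and dashed lines mark 1.5 either way. FOS was lower with quisinostat and mivebresib than with romidepsin, and JUND was higher with mivebresib than with either HDAC inhibitor.

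Mivebresib, a drug of the other class at its own dose of 1200 nM, differed from romidepsin by lower FOS (-1.72, adjusted p = 5.09e-06) and JUNB (-0.33, adjusted p = 0.0189) and by higher JUN (0.45, adjusted p = 0.00125), JUND (1.35, adjusted p = 7.35e-04), ATF3 (0.87, adjusted p = 9.08e-04) and IER2 (0.35, adjusted p = 0.00681). Over all genes 23.7% were called higher and 25.2% lower. The JUNB difference was lost without romidepsin library 2 (adjusted p = 0.143) or mivebresib library 2 (adjusted p = 0.119), and that of IER2 without romidepsin library 1 (adjusted p = 0.0559) or mivebresib library 1 (adjusted p = 0.0574). EGR1 did not differ at the threshold (0.045, 95% interval -0.14 to 0.23). Against quisinostat, 7 members were higher with mivebresib and 0 lower, also 0 at an unadjusted p below 0.05 in edgeR, in DESeq2 and in limma-voom, beside 26.2% of all genes called higher and 31.5% called lower. JUND was 1.54 higher on the log2 scale (adjusted p = 2.81e-04), ATF3 1.03, JUN 0.96, EGR1 0.82, FOSL1 0.54, IER2 0.41 and FOSL2 0.35, the last lost under library size alone (adjusted p = 0.0999) and without quisinostat library 1 (adjusted p = 0.0541). FOS, low with both drugs, differed by 0.19 (95% interval -0.036 to 0.41, adjusted p = 0.133), and JUNB by -0.021 (95% interval -0.24 to 0.19).

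Because FOS proteins pair with JUN proteins, the length-scaled levels of the 7 family genes were also expressed as shares of their sum. FOS-family transcripts made up 45.3% and 50.4% of the sum in control libraries, 43.2% and 41.4% with romidepsin, 37.1% and 36.1% with quisinostat, and 26.3% and 26.7% with mivebresib. Every drug library lay below both controls, and the mivebresib libraries lay lowest. The share of FOS itself averaged 9.60% in control, 10.3% with romidepsin, 3.85% with quisinostat and 2.42% with mivebresib. FOSL2 held 20.9%, 19.2%, 21.5% and 15.1% in the same order. JUN held 21.2%, 26.0%, 25.5% and 27.4%. JUND held 21.7%, 19.5%, 24.1% and 38.5%, so its share was highest with mivebresib. The sizes and the order of these shares depended on the length scaling. Without it, JUND held 11.8% in control and 22.7% with mivebresib, below FOSL2 (34.3%) and JUN (30.7%) with mivebresib, and the FOS family made up 59.4% and 64.0% of the sum in control libraries, 57.2% and 55.7% with romidepsin, 54.2% and 53.7% with quisinostat, and 41.8% and 42.6% with mivebresib. On that scale too, every drug library lay below both controls and the mivebresib libraries lay lowest. No test was run on these shares, which describe transcripts, not dimers.

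**Figure D4:**
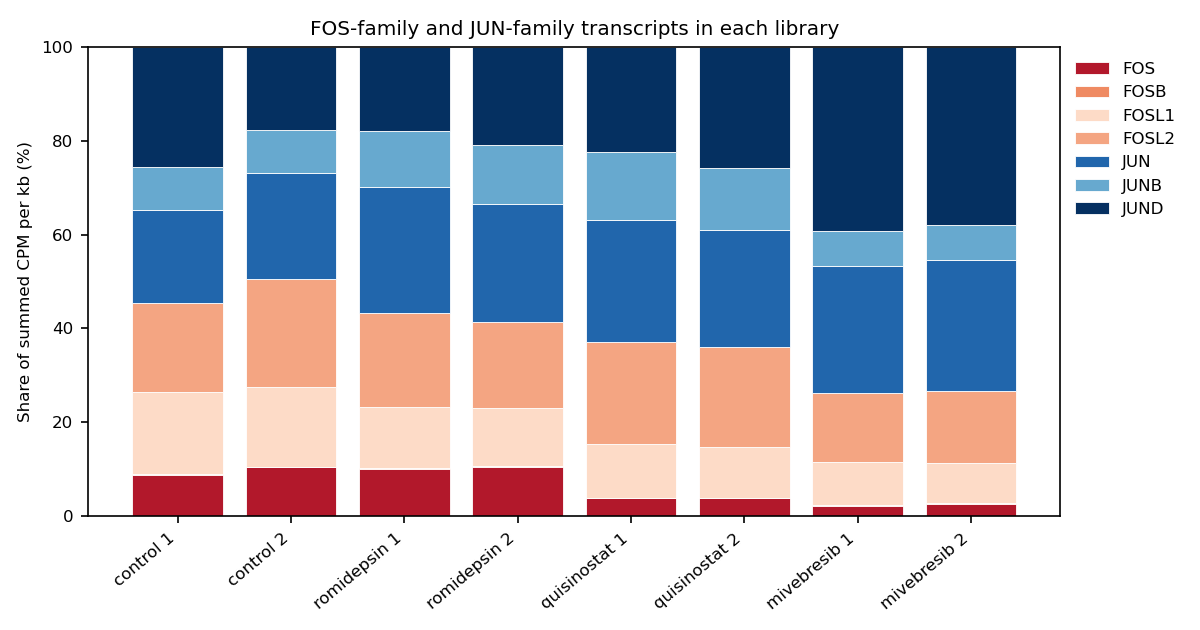
Share of each FOS-family (reds) and JUN-family (blues) gene in their summed CPM per kilobase of exon (y axis, percent) in each of the 8 libraries (x axis). JUND took 38.5% on average with mivebresib against 21.7% in control, and FOS 2.42% against 9.60%, while FOSB is too low to see.

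The genes around AP-1 moved with the drugs in both directions. Of 38 tested immediate early genes other than the members, 15 were higher and 8 lower with romidepsin, 10 and 16 with quisinostat, and 20 and 7 with mivebresib. These counts were 39.5% and 21.1% of the list with romidepsin, 26.3% and 42.1% with quisinostat and 52.6% and 18.4% with mivebresib, beside 15.2% and 15.8%, 28.0% and 25.1%, and 22.2% and 24.1% of all genes. Their median log2 change was 0.12, -0.18 and 0.36, where the medians of all genes were -0.012, -0.0036 and 0.0067. EGR2, a relative of EGR1 known for its role in nerve sheath cells, rose by 2.52 with romidepsin (adjusted p = 1.23e-04) and 2.06 with quisinostat (adjusted p = 6.92e-05). Its value with mivebresib was -0.82 (adjusted p = 0.0466), at 0.435 against 0.774 CPM in control. That call was lost under all 16 alternatives that tested EGR2, among them DESeq2 (adjusted p = 0.139) and limma-voom (adjusted p = 0.0698). With a library left out the value ran from -0.94 to -0.70. EGR3, another relative, fell by 1.69 with quisinostat (adjusted p = 3.16e-05) and by 4.05 with mivebresib (adjusted p = 2.32e-06), from a control mean of 16.9 to 1.02 CPM. With romidepsin EGR3 changed by -0.46 (adjusted p = 0.0329), which was lost with DESeq2 (adjusted p = 0.0695), without control library 1 (adjusted p = 0.123), without romidepsin library 1 (adjusted p = 0.224) and without either quisinostat library (adjusted p = 0.0682 and 0.0685). KLF2, a flow-responsive zinc finger factor, rose by 2.23 with mivebresib (adjusted p = 1.57e-05), and IER5L fell by 1.17 with romidepsin (adjusted p = 7.62e-04) and by 0.78 with quisinostat (adjusted p = 0.00184).

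Among 33 tested bZIP genes beyond the members, 5 were higher and 10 lower with romidepsin, 6 and 12 with quisinostat, and 9 and 3 with mivebresib. These were 15.2% and 30.3%, 18.2% and 36.4%, and 27.3% and 9.09% of the list, against the 15.2% and 15.8%, 28.0% and 25.1%, and 22.2% and 24.1% of all genes, so the share called higher was that of all genes with romidepsin. CREB5, a CREB-related factor that can pair with JUN, rose by 2.02 with quisinostat (adjusted p = 1.75e-06) and 2.25 with mivebresib (adjusted p = 1.52e-06), to 48.3 and 56.7 CPM from 11.9 in control, and by 0.70 with romidepsin (adjusted p = 9.32e-04). ATF5, an ATF family member of the stress response, fell by 1.61 with romidepsin (adjusted p = 1.25e-04) and by 2.32 with quisinostat (adjusted p = 4.73e-06). CEBPD, an inflammatory bZIP factor, had lower levels with each drug, but its control libraries held 53.8 and 24.2 CPM. The drug libraries held 12.8 and 15.0 with romidepsin, 11.6 and 14.9 with quisinostat and 16.5 and 11.5 with mivebresib. The log2 change was -1.49 with romidepsin (adjusted p = 0.0120), -1.56 with quisinostat (adjusted p = 0.00482) and -1.48 with mivebresib (adjusted p = 0.00753). Without control library 1 the values were -0.78 (adjusted p = 0.0128), -0.88 (adjusted p = 0.00307) and -0.79 (adjusted p = 0.00705), and the call was lost without either romidepsin library (adjusted p = 0.0904 and 0.0537) and, for mivebresib, without its library 2 (adjusted p = 0.0716).

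Of 34 kinases, G protein effectors and other regulators upstream of AP-1, 5 were higher and 6 lower with romidepsin, 8 and 13 with quisinostat, and 10 and 11 with mivebresib. With romidepsin these shares, 14.7% and 17.6%, lay near the 15.2% and 15.8% of all genes and say nothing particular of the list, and they were 23.5% and 38.2% with quisinostat and 29.4% and 32.4% with mivebresib, beside 28.0% and 25.1%, and 22.2% and 24.1%. RASGRP3, a RAS activator that couples G protein signalling to MAP kinases in UM, fell by 2.24 with mivebresib (adjusted p = 9.97e-07), from 136 to 28.7 CPM, and by 0.85 with quisinostat (adjusted p = 3.73e-05). PRKCE, a protein kinase C of the same route, fell by 2.50 with mivebresib (adjusted p = 9.97e-07) and by 0.70 with quisinostat (adjusted p = 1.61e-04). RPS6KA2, a ribosomal S6 kinase, and PLCB4, the phospholipase downstream of the G proteins, rose with quisinostat by 1.53 (adjusted p = 3.80e-06) and 0.97 (adjusted p = 4.77e-04). RPS6KA2 also rose by 0.69 with mivebresib (adjusted p = 2.75e-04). The PLCB4 values of 0.54 with romidepsin (adjusted p = 0.0200) and -0.49 with mivebresib (adjusted p = 0.0263) lost the call, the first without either romidepsin library (adjusted p = 0.0560 and 0.110), the second without control library 1 (adjusted p = 0.0804) or mivebresib library 1 (adjusted p = 0.136). MAP2K7, a JNK activator, fell by 0.92 with romidepsin (adjusted p = 1.48e-04) and by 0.97 with quisinostat (adjusted p = 2.53e-05), and rose by 0.39 with mivebresib (adjusted p = 0.00341). MAPK7 fell by 0.55 with romidepsin (adjusted p = 0.0126), lost without romidepsin library 1 (adjusted p = 0.105), and by 0.44 with quisinostat (adjusted p = 0.0176), lost under library size alone (adjusted p = 0.140) and without either quisinostat library (adjusted p = 0.0690 and 0.0841).

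Of 15 MAP kinase phosphatases, 4 were higher and 3 lower with romidepsin, 1 and 5 with quisinostat, and 5 and 5 with mivebresib. The share called higher was 26.7%, 6.67% and 33.3% of this short list, where 15.2%, 28.0% and 22.2% of all genes were higher. The share called lower was 20%, 33.3% and 33.3%, where 15.8%, 25.1% and 24.1% of all genes were lower. DUSP1, itself an immediate early gene, rose by 1.01 with romidepsin (adjusted p = 7.64e-04) and DUSP5 by 0.68 (adjusted p = 0.00113). With mivebresib DUSP5 rose by 0.37 (adjusted p = 0.0121). This call was lost with DESeq2 (adjusted p = 0.0523), with the 4 libraries alone (adjusted p = 0.0625) and without mivebresib library 2 (log2 change 0.35). DUSP6 fell by 0.67 with quisinostat (adjusted p = 9.55e-05) and by 0.81 with mivebresib (adjusted p = 4.69e-05), and DUSP9 by 0.66 with quisinostat (adjusted p = 6.20e-04) and 2.48 with mivebresib (log2 change -2.48, adjusted p = 2.31e-06), and DUSP10 fell by 0.98 with mivebresib (adjusted p = 1.04e-04). Smaller values of DUSP6 with romidepsin (-0.25, adjusted p = 0.0283), DUSP10 with romidepsin (0.30, adjusted p = 0.0459) and DUSP1 with mivebresib (0.36, adjusted p = 0.0490) passed, and lost the call without any 1 of 6, 7 and 5 of the 8 libraries, at adjusted p values of up to 0.159, 0.173 and 0.277.

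Of 36 genes commonly described as AP-1 targets, 28 were tested, and 7 were higher and 0 lower with romidepsin (9 and 3 at an unadjusted p below 0.05 in edgeR, 8 and 1 in DESeq2, 7 and 0 in limma-voom), 8 and 3 with quisinostat, and 9 and 8 with mivebresib. The share called higher was 25.0%, 28.6% and 32.1%, beside 15.2%, 28.0% and 22.2% of all genes, and so near that of all genes with quisinostat. The share called lower was 10.7% with quisinostat and 28.6% with mivebresib, beside 25.1% and 24.1%, and with romidepsin 15.8% of all genes were lower. The cytokine gene CXCL8 rose by 1.25 with romidepsin (adjusted p = 2.18e-04), from 7.34 to 17.5 CPM. HBEGF, a ligand of the EGF receptor, rose by 1.24 with romidepsin (adjusted p = 1.31e-04), 1.32 with quisinostat (adjusted p = 1.99e-05) and 1.57 with mivebresib (adjusted p = 1.24e-05). The chemokine gene CCL2 fell by 1.40 with quisinostat (adjusted p = 4.91e-04) and by 5.62 with mivebresib (adjusted p = 7.04e-06), from 8.24 to 0.162 CPM. Its mivebresib libraries held 2 and 7 counts, and without either one the value ran from -6.74 to -5.01 (adjusted p = 1.80e-04 and 1.98e-04). The cytokine gene IL6 moved in opposite directions with the drug classes. It rose by 1.15 with romidepsin (adjusted p = 0.00379) and by 0.80 with quisinostat (adjusted p = 0.0107), the latter lost without quisinostat library 1 (adjusted p = 0.0664), and fell by 4.05 with mivebresib (adjusted p = 4.24e-05), from 3.96 to 0.236 CPM. IL6 had 136 and 85 counts in control libraries and only 7 and 6 in mivebresib libraries. Its log2 change with mivebresib was -1.94 on the authors' log CPM, so the size of this fall is uncertain. The median change of the tested targets was 0.21, -0.015 and 0.10 with romidepsin, quisinostat and mivebresib.

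**Figure D5:**
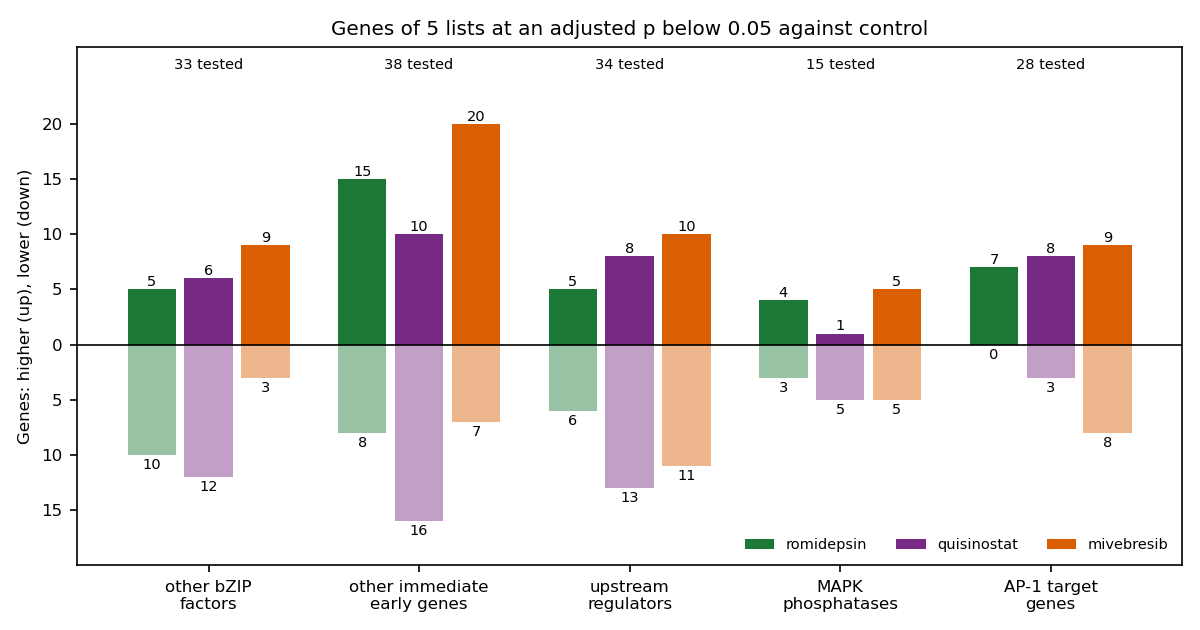
Number of genes in 5 lists at an adjusted p below 0.05 against control (y axis, higher above 0 and lower below) for romidepsin, quisinostat and mivebresib, with the number tested above each list. Immediate early genes other than the 10 members were called higher 20 times and lower 7 times with mivebresib, and 10 and 16 times with quisinostat.

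Among 9839 genes with a mean log2 CPM no lower than 3, those whose log2 CPM over the 8 libraries ran most like FOS were USP48, a deubiquitinase (Pearson r = 0.994), WWTR1, which encodes the Hippo pathway coactivator TAZ (r = 0.993), and WDFY1 (r = 0.992). Those most like ATF3 were ANKRD46 (r = 0.996), ZBTB48, a telomere-binding zinc finger protein (r = 0.980), and KLHL8 (r = 0.979). The libraries form 4 groups and share their controls, so these values are descriptions of the likeness in these 8 libraries.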

How the data were processed

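Bulk RNA from MP38 cells was analysed in 4 groups of 2 libraries, assigned from the sample labels. The authors sequenced paired-end reads of 150 bp, processed them with BioJupies and deposited raw counts per gene symbol, without normalization, and a table of log10(CPM + 1) values. The authors' quantile-normalized table was not used because its scale is not stated. The submitters' processing notes name hg38, and the aligner, annotation and strand setting are not given in the sources used here.

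Counts of all 8 libraries were fitted in a single edgeR 4.0.16 model in R 4.3.3 (TMM factors, filterByExpr by group, quasi-likelihood test), with a biological coefficient of variation of 0.0938. P-values were adjusted by Benjamini-Hochberg over the 15085 genes tested, calls used an adjusted p below 0.05, and a log2 change beyond 1.5, the study's limit, was also counted. Group fold changes are model estimates and levels are TMM-scaled CPM. Libraries held 28483235 to 29359024 counts, and counting depth limited FOSB, with 16 to 33 counts per library. The alternatives were DESeq2 1.42.0, limma 3.58.1 with voom, limma on the authors' log10 values rescaled to log2, where the added 1 shrinks changes of low genes, upper-quartile factors, library size without TMM, omission of the filter, a mean CPM of at least 5, a fit of only the 4 libraries compared, the replicate number as a block and each library left out, which for a single comparison makes 17 settings (16 for FOSB).

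All 10 members are named. From each of 5 other lists, the 2 genes with the largest change among those called, at an average log2 CPM of at least 1, are named per drug, together with genes overlapping a member and the 3 genes most like FOS and ATF3, the members past both thresholds with a drug against control. The members and lists were chosen with earlier results of these data known. Exon lengths and positions came from GENCODE 29 on GRCh38, and promoter sequences from RefSeq (GRCh38.p14), searched in Python 3.11.15. Planned protein features were not run. Of the genes that the naming rule gives, 1 is not reported here.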

Additional observations from a re-analysis of the deposited data

How the results depend on the processing

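With 2 libraries a group, 1 library carries much weight, and leaving one out leaves a lone library that is assumed to vary like the other groups. The falls of FOS and the rises of ATF3, JUN and JUND with mivebresib, and of ATF3, JUN, JUNB and EGR1 with romidepsin, kept their direction and call in every setting tried. Of 1006 values under other settings, 913 kept direction and call, 67 lost the call, 6 gained it and 20 turned sign. With a library left out, 819 of 904 values kept both, 69 lost the call, 4 gained it and 12 turned sign. These include the called values of the named genes of the other lists, a choice made after seeing the data. Apart from fewer libraries or genes in a fit, the cause of these changes was not tested.

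The number of members called lower with romidepsin went from 1 to 0 under library size alone, upper-quartile factors, a mean CPM of at least 5, the 4 libraries alone and the authors' log CPM. With quisinostat the number called higher went from 1 to 2 under those settings other than the 4 libraries, and the number called lower from 6 to 2 under library size alone and upper-quartile factors, and to 3 under a mean CPM of at least 5, the 4 libraries alone and the log CPM. Under library size alone 2144 genes were lower with quisinostat than control, 1298 lower with quisinostat than romidepsin and 2554 higher with mivebresib than quisinostat, and on the log CPM these counts were 2149, 1321 and 2602, against 3793, 2200 and 3954. With a mean CPM of at least 5, 2729 genes were higher with quisinostat than control and 2001 than romidepsin, against 4231 and 3167. With the 4 libraries alone, romidepsin gave 1427 higher and 1116 lower genes, against 2293 and 2377, and 3545 genes were lower with quisinostat than romidepsin.

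Uncalled differences near 0 turned sign. FOSL2 with romidepsin against control came to 0.061 under library size alone, 0.061 on the log CPM, 0.072 under upper-quartile factors, 0.047 with a mean CPM of at least 5, 0.0013 with DESeq2 and 0.013 with the 4 libraries alone. FOSL2 with mivebresib against romidepsin came to -0.023 under library size alone and on the log CPM, -0.0025 with a mean CPM of at least 5 and -0.010 under upper-quartile factors. JUN with quisinostat came to 0.087, 0.086 and 0.016 under library size alone, the log CPM and upper-quartile factors, and JUND with romidepsin to 0.0062, 0.040 and 0.020. Under library size alone and the log CPM, EGR1 with mivebresib against romidepsin came to -0.0070 and -0.0076, and IER2 with quisinostat against romidepsin to 0.065 and 0.063.

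With a library left out, JUND ran from -0.36 to 0.33 with romidepsin and from -0.55 to 0.13 with quisinostat, set by which control was left out. FOSL2 ran from -0.062 to 0.064 with romidepsin and from -0.057 to 0.091 with mivebresib. Against romidepsin, mivebresib gave -0.42 to 0.18 for FOSB and -0.032 to 0.12 for EGR1, and against quisinostat -0.072 to 0.038 for JUNB. Members lower ran from 0 to 3 with romidepsin and 2 to 6 with quisinostat, and from 1 to 2 with mivebresib against romidepsin, and members higher with quisinostat from 1 to 2. Genes higher with romidepsin ran from 1201 (without romidepsin library 1) to 3159 (without control library 2) and genes lower from 985 to 3468 for the same libraries. Against romidepsin, quisinostat gave 1686 to 3961 higher and 1077 to 3333 lower genes, the low values without quisinostat library 2 and 1, and the high ones without control library 2 and 1.

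Without length scaling, the share of FOSL2 was 43.1%, 39.7%, 44.2% and 34.3% and that of JUND 11.8%, 10.5%, 12.9% and 22.7% in control, romidepsin, quisinostat and mivebresib, that of FOS 9.65% with romidepsin and 3.58% with quisinostat, and that of JUN 30.7% with mivebresib. With the length of the principal transcript, a setting chosen after seeing the data, the share of FOS was 13.3%, 14.3%, 5.51% and 3.51%, that of JUN 24.1%, 24.3% and 26.5% with romidepsin, quisinostat and mivebresib, that of FOSL2 21.9% with quisinostat and that of JUND 37.3% with mivebresib.

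The labels do not say whether libraries with the same replicate number were handled together. Differences between replicates 1 and 2 correlated between groups from -0.162 (control and romidepsin) to 0.158 (control and mivebresib). These values cannot decide whether the libraries were paired. With the replicate block the members called higher and lower stayed at 4 and 1 with romidepsin, 1 and 6 with quisinostat and 4 and 2 with mivebresib, and the number of genes called higher with romidepsin was 2228.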
